A study of Sus scrofa with 4 samples.

Results

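RNA sequencing of sorted skin cells of 2 pigs was examined for the genes at the nuclear end of canonical WNT signaling. The members were taken by name: the DNA-binding factors TCF7, TCF7L1, TCF7L2 and LEF1, the coactivator beta-catenin (CTNNB1), the corepressors TLE1, TLE2, TLE3 and TLE4, and AXIN2 as a target gene. Of these 10 genes, 9 were matched by name among the 29837 named genes of the count table, and all 9 passed the filter on low counts. TLE1 was not analysed here. In LGR5-high cells TCF7, TCF7L1 and TCF7L2 were 6.87-fold, 6.95-fold and 6.64-fold higher than in LGR5-negative cells, CTNNB1 was 2.07-fold higher and LEF1 1.54-fold higher. TLE3, TLE4 and AXIN2 were lower there, with 1.76-fold, 1.92-fold and 1.33-fold higher levels in LGR5-negative cells, and TLE2 was not called different. The call of AXIN2 depended on the processing and was lost in 7 of 14 other settings.

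The pigs, 88R and 95R, were juvenile and carried H2B-GFP, a green fluorescent protein joined to histone H2B, in exon 1 of one LGR5 allele, so GFP was driven by the LGR5 promoter. The founders came from clonal edited fetal fibroblasts by nuclear transfer. Both populations therefore carry the same knock-in, and how the pigs of these libraries were bred is not stated. Cells of the hair and epidermis, freed from the dermis with Dispase and dispersed with trypsin, were sorted alive by their GFP, and 1 library per pig was made from the brightest cells (GFP-hi, here LGR5-high) and 1 from the cells without GFP (GFP-neg, here LGR5-negative). Cells of dim GFP were in neither library. The sort bears on LGR5 itself, which had 4551 and 6224 counts in LGR5-high and 36 and 109 counts in LGR5-negative. The genes described below were not used in the sort. LGR5 is, however, itself counted among the known targets of TCF and beta-catenin, so the sort may not be independent of these genes.

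In canonical WNT signaling, beta-catenin is destroyed in the cytoplasm until a WNT ligand binds its receptors. It then enters the nucleus and binds the amino-terminal end of TCF and LEF proteins, which hold target genes through a DNA-binding HMG box. Without beta-catenin these proteins recruit TLE (Groucho) corepressors and keep the targets silent. In hair follicles TCF7L1 and TCF7L2 are known from the mouse as factors of the bulge stem cells, and LEF1 from the hair germ, matrix and hair shaft precursors.

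The libraries held between 30696803 and 32463362 counts on named genes, and the scaling factors of the trimmed mean of M-values (TMM) were between 0.919 and 1.08. Levels are given as CPM, the counts after each library, scaled by TMM, is set to a total of 1000000. A pair of values for a population is given with pig 88R first and pig 95R second. The lowest count of any member was 114, for TCF7 in the LGR5-negative library of pig 95R, with a 95% Poisson interval from 94.0 to 137 that covers counting error only. CPM is not corrected for transcript length, so levels are compared between libraries and not between genes. With bulk RNA, more cells that express a gene and more RNA per cell cannot be told apart. Since each population has 1 library from each of 2 pigs, the spread between animals, sorts and library preparations cannot be told apart.

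The keratinocyte genes KRT5, TP63, CDH1 and DSP were not called different, PERP fell, KRT14 was not analysed here, and 4 of 5 tested markers of differentiated interfollicular epidermis fell in LGR5-high. Of the outer root sheath and bulge markers 3 of 5 rose, SOX9, LHX2 and TBX1. Markers of T cells, antigen-presenting cells, melanocytes, fibroblasts and endothelium are given further on.

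**Figure D1:**
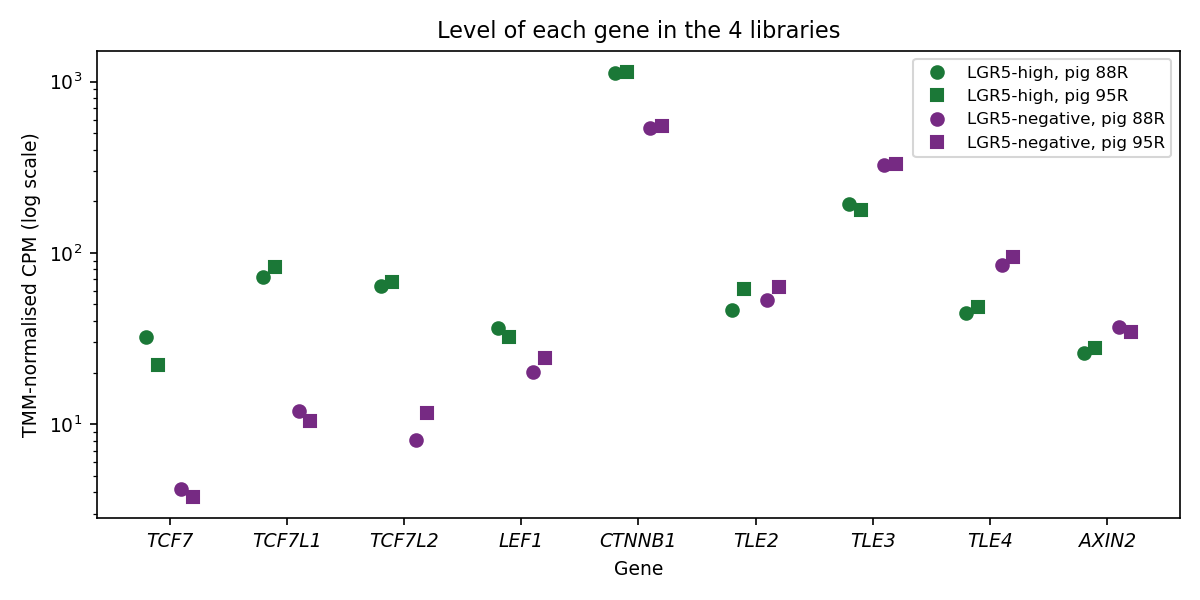
Level of each gene in TMM-normalised CPM on a log axis, with 1 point per library (circles, pig 88R; squares, pig 95R; green, LGR5-high; purple, LGR5-negative). The green points lie above the purple points for TCF7, TCF7L1, TCF7L2, LEF1 and CTNNB1, below them for TLE3, TLE4 and AXIN2, and among them for TLE2. Heights are not comparable between genes, since CPM is not corrected for length.

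Populations were compared with the quasi-likelihood test of edgeR, p-values were adjusted by Benjamini-Hochberg over all 15980 tested genes, and a gene was called at an adjusted p-value under 0.05. Of the 9 members, 5 were called higher in LGR5-high, where 22.7% of all tested genes were, and 3 were called lower, where 22.0% of all tested genes were. TLE2 was not called. Taken in either direction 44.7% of all tested genes were called, so a call was common in these libraries. The shares of tested genes called higher and lower were 34.2% and 14.6% with libraries scaled by their size only, 28.5% and 27.2% with the pig as a replicate block, 17.9% and 18.2% with DESeq2, 22.9% and 22.1% when limma-voom was used, 3.40% and 3.14% with Student's t-test, and 1.21% and 0.814% with Bonferroni adjustment. In the edgeR test the median log2 fold change was 0.62 over the 9 members and 0.02 over all tested genes.

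The DNA-binding factors fell into 2 patterns, with TCF7, TCF7L1 and TCF7L2 on one side and LEF1 on the other. TCF7L1, which acts largely as a repressor in stem cells, had 72.7 and 82.6 CPM in LGR5-high and 11.9 and 10.4 CPM in LGR5-negative. Both LGR5-high values were far above both LGR5-negative values. Its log2 fold change was 2.80 (SE, the standard error, 0.125, adjusted p = 8.37e-05 by edgeR), and that of the single pigs was 2.60 (88R) and 2.98 (95R).

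TCF7L2, a factor that activates targets with beta-catenin and represses them without it, had 64.0 and 67.2 CPM in LGR5-high and 8.07 and 11.6 CPM in LGR5-negative. The LGR5-high values of the pigs were close, and the LGR5-negative value was the higher one in pig 95R. Its log2 fold change was 2.73 (SE 0.185, adjusted p = 2.43e-04 by edgeR), and that of the single pigs was 2.98 (88R) and 2.52 (95R). In the RefSeq annotation of Sscrofa11.1, which may differ from the annotation the counts rest on, a long noncoding RNA, LOC102165730, lies within the span of TCF7L2. It had 346 and 383 counts in LGR5-high and 41 and 45 counts in LGR5-negative, at most 17.8% of the counts of TCF7L2 in the same library. The strand setting of the counting is not given in the sources used here, so reads of the pair may not be fully separated.

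TCF7, a family member that T cells and several epithelia use, had 32.4 and 22.3 CPM in LGR5-high and 4.18 and 3.77 CPM in LGR5-negative. The populations did not overlap, although the LGR5-high value of pig 88R was well above that of pig 95R. Its log2 fold change was 2.78 (SE 0.223, adjusted p = 4.14e-04 by edgeR), and that of the single pigs was 2.94 (88R) and 2.54 (95R). Because TCF7 is also a T cell gene, the T cell markers stand beside it. CD3E, CD3D, CD3G and CD2 had 0 counts in both LGR5-high libraries, where 3 counts would have been 0.0873 and 0.0908 CPM. In LGR5-negative they had 1 and 2, 0 and 2, 1 and 4, and 3 and 3 counts in that order. These 4 genes were thus near 0 in both populations and do not separate them. The pan-leukocyte gene PTPRC had 7 and 4 counts in LGR5-high against 55 and 86 in LGR5-negative. LCK had 10 and 4 counts in LGR5-high and 0 and 1 in LGR5-negative. CD247 rose, with 370 and 367 counts in LGR5-high and 117 and 104 in LGR5-negative. The summed level of the 7 genes, most of it from CD247, was 11.3 and 11.4 CPM in LGR5-high and 6.21 and 6.68 CPM in LGR5-negative, and its part in the difference of TCF7 was not tested.

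LEF1, the partner through which beta-catenin activates genes of the hair germ and matrix, had 36.3 and 32.2 CPM in LGR5-high and 20.2 and 24.3 CPM in LGR5-negative. The populations did not overlap, but their nearest values were much closer than for the other 3 factors. Its log2 fold change was 0.62 (SE 0.136, adjusted p = 0.0139 by edgeR), and that of the single pigs was 0.84 (88R) and 0.41 (95R). The call was lost without the LGR5-high library of pig 88R, where the log2 fold change was 0.53 and the adjusted p-value 0.0792, and over all 14 other settings the adjusted p-value ran from 4.27e-04 to 1. Markers of the hair matrix, cortex and inner root sheath moved with it in part. HOXC13, KRT25 and TCHH rose, with log2 fold changes of 1.77, 3.53 and 4.00, while KRT35, a hair shaft keratin, fell with -2.40 and MSX2 was not called. The summed level of the 5 matched genes of that list was between 955 and 1249 CPM in LGR5-high and between 395 and 474 CPM in LGR5-negative, and its part in the difference of LEF1 was not tested.

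Among the 15980 tested genes, 5.36% had a larger log2 fold change than TCF7L1, 5.43% than TCF7, 5.58% than TCF7L2 and 23.1% than LEF1. The estimates of the first 3 lay between 2.73 and 2.80, a span below the SE of each. The ratio of 2 genes within a library needs no scaling between libraries. The log2 ratio of TCF7L2 to LEF1 counts was 0.82 and 1.06 in LGR5-high and -1.32 and -1.06 in LGR5-negative. That ratio changed by 2.14 (88R) and 2.12 (95R). For TCF7 to LEF1 the change was 2.11 and 2.15, and for TCF7L1 to LEF1 it was 1.76 and 2.58.

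Between the other 3 factors the ratios did not move one way. TCF7 to TCF7L1 changed by 0.35 in pig 88R and -0.42 in pig 95R, TCF7 to TCF7L2 by -0.03 and 0.03, and TCF7L1 to TCF7L2 by -0.38 and 0.46. Each of the 3 ratios to LEF1 was higher in both LGR5-high libraries than in both LGR5-negative libraries. The 2-sided exact permutation test gave each of them p = 0.333, which is the smallest value that 2 libraries against 2 can give, and 0.500 after Benjamini-Hochberg adjustment over the 12 ratios computed. With 2 libraries in each population this permutation test could not pass the threshold for any ratio.

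The counts of the 4 DNA-binding factors summed to 1265 and 1515 in LGR5-negative and to 7060 and 6748 in LGR5-high. In CPM the sum was 44.4 and 50.1 in LGR5-negative and 205 and 204 in LGR5-high. LEF1 gave 45.5% (95% Wilson interval 42.8 to 48.3) and 48.4% (45.9 to 51.0) of these counts in LGR5-negative. In LGR5-high it gave 17.7% (16.8 to 18.6) and 15.8% (14.9 to 16.7). The share of TCF7L1 was 26.9% and 20.8% in LGR5-negative and 35.4% and 40.4% in LGR5-high, and that of TCF7L2 went from 18.2% and 23.2% to 31.2% and 32.9%. The share of TCF7 was 9.41% and 7.52% in LGR5-negative and 15.8% and 10.9% in LGR5-high. LEF1 thus gave a smaller part of the family's reads in LGR5-high. TCF7, TCF7L1 and TCF7L2 gave larger parts, with no overlap of the populations for any of these genes. The shares are of reads and not of molecules, because longer transcripts give more reads, and the intervals cover counting error only.

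**Figure D2:**
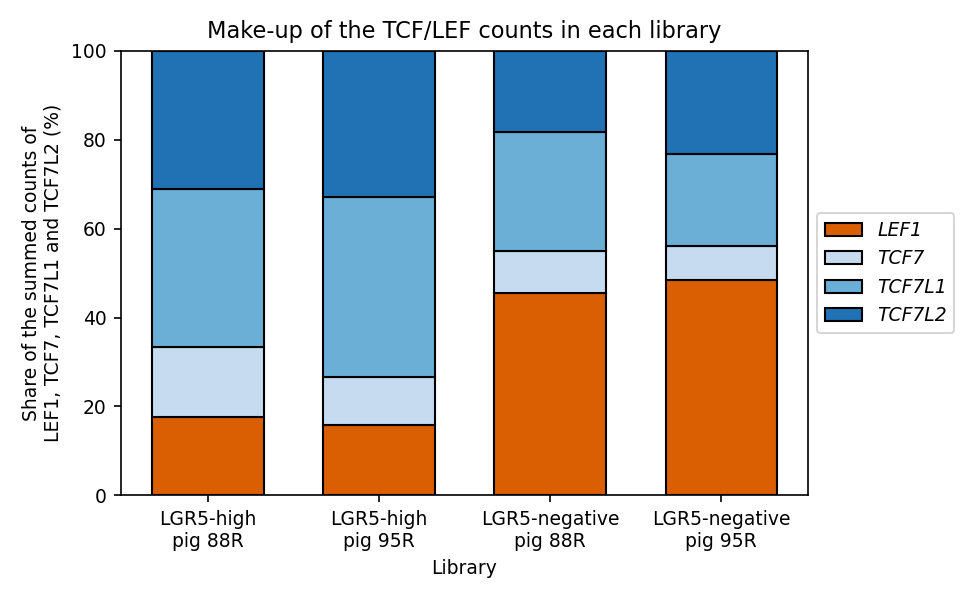
Share of the summed counts of LEF1, TCF7, TCF7L1 and TCF7L2 that each gene gave, in percent, with 1 stacked bar per library. LEF1 holds 17.7% and 15.8% of the bars of LGR5-high and 45.5% and 48.4% of those of LGR5-negative.

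CTNNB1, which encodes beta-catenin, the coactivator of the TCF and LEF proteins and also a part of adherens junctions, had 1116 and 1137 CPM in LGR5-high and 538 and 552 CPM in LGR5-negative. The pigs differed little within a population, by 0.03 and 0.04 on the log2 scale. The log2 fold change was 1.05 (SE 0.0794, adjusted p = 3.46e-04 by edgeR), and that of the single pigs was 1.05 (88R) and 1.04 (95R), the narrowest spread between pigs of the members that were called. Other genes lie across its span in the same annotation, of which ULK4 had at most 0.852% of its counts.

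**Figure D3:**
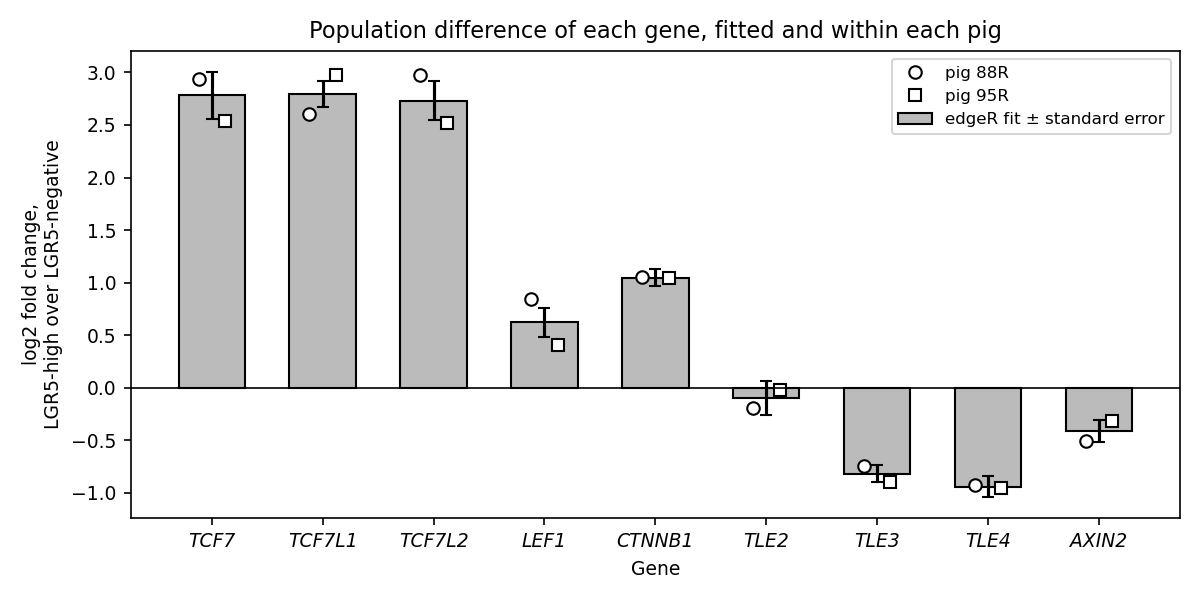
log2 fold change of each gene between LGR5-high and LGR5-negative. Bars are the edgeR estimates with their SEs, open circles pig 88R and open squares pig 95R. TCF7, TCF7L1 and TCF7L2 stand between 2.73 and 2.80, LEF1 at 0.62, CTNNB1 at 1.05, and TLE3 and TLE4 at -0.82 and -0.94.

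The TLE corepressors, which TCF and LEF proteins recruit when beta-catenin is absent, did not rise with the factors that bind them: TLE3 and TLE4 fell and TLE2 was not called. TLE3 had 194 and 177 CPM in LGR5-high and 325 and 330 CPM in LGR5-negative. TLE4 had 44.8 and 48.5 CPM in LGR5-high and 85.0 and 94.1 CPM in LGR5-negative. For both genes every LGR5-high value was below every LGR5-negative value. The log2 fold change was -0.82 for TLE3 (SE 0.083, adjusted p = 9.07e-04 by edgeR) and -0.94 for TLE4 (SE 0.0959, adjusted p = 9.23e-04). In pigs 88R and 95R these were -0.75 and -0.89 for TLE3, and -0.92 and -0.96 for TLE4.

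TLE2 had 46.2 and 61.7 CPM in LGR5-high and 52.7 and 62.8 CPM in LGR5-negative. Here the values followed the pig more than the population, being higher in pig 95R by 0.42 on the log2 scale in LGR5-high and by 0.25 in LGR5-negative. The log2 fold change was -0.10 (SE 0.165, adjusted p = 0.654 by edgeR), and it was 0.12 when libraries were scaled by their size only. Within a library the log2 ratio of TLE2 to TLE4 was 0.05 and 0.35 in LGR5-high and -0.69 and -0.58 in LGR5-negative. The ratio of TLE3 to TLE4 overlapped, with 2.12 and 1.87 in LGR5-high and 1.94 and 1.81 in LGR5-negative.

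AES and TLE6 are relatives of the TLE genes that stand on either side of TLE2 in the RefSeq annotation, and neither was called. AES, a short family member that lacks the carboxy-terminal repeats, had 227 and 265 CPM in LGR5-high and 248 and 234 CPM in LGR5-negative. TLE6 was low, with 27 and 77 counts in LGR5-high and 84 and 192 in LGR5-negative. Its log2 fold change was -1.58 (SE 0.595, adjusted p = 0.0778 by edgeR), and it was called lower with the pig as a replicate block.

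AXIN2, a scaffold of the destruction complex that WNT signaling itself induces and thus a common readout of the pathway, had 25.9 and 27.7 CPM in LGR5-high and 37.0 and 34.4 CPM in LGR5-negative. The populations did not overlap, and the difference was the smallest of the called members. The log2 fold change was -0.41 (SE 0.104, adjusted p = 0.0226 by edgeR), and that of the single pigs was -0.51 (88R) and -0.31 (95R). The call was lost in 7 of 14 other settings. Scaling by library size only gave -0.19 with an adjusted p-value of 0.178, and upper quartile scaling gave -0.32 with 0.0555. Library size only moved the median of all tested genes from 0.02 to 0.24, and relative to the median of its own scaling AXIN2 was at -0.43 under both. Without the LGR5-high library of pig 88R or 95R, or the LGR5-negative library of pig 88R, the adjusted p-value was 0.119, 0.0793 or 0.0784. Over all 14 settings it ran from 0.00522 to 1.

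CEP112 overlaps the span of AXIN2 in the RefSeq annotation and rose, with a log2 fold change of 2.64, but had at most 6.95% of the counts of AXIN2. Its counts were 62 and 54 in LGR5-high and 6 and 10 in LGR5-negative. Set against LEF1, which is itself a gene that beta-catenin can induce, the log2 ratio of AXIN2 was -0.48 and -0.22 in LGR5-high and 0.87 and 0.50 in LGR5-negative. The ratio fell by 1.35 in pig 88R and by 0.72 in pig 95R, and did not overlap between the populations.

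**Figure D4:**
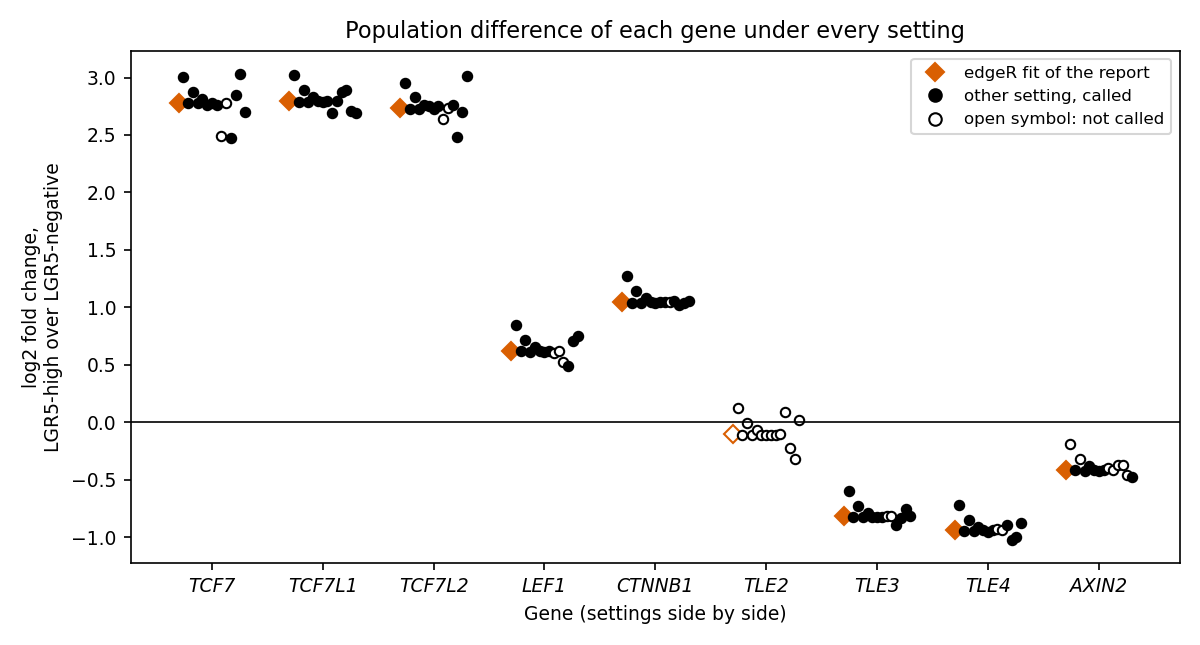
log2 fold change of each gene under the edgeR fit of the report (orange diamonds) and 14 other settings (circles), filled where the adjusted p-value was under 0.05. TCF7L1 is filled throughout, AXIN2 is open in 7 of the 14, and the points of TLE2 stand on both sides of 0 and are open throughout.

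Other genes of the pathway were described from 4 lists. In the list of known targets of TCF and beta-catenin, which left out AXIN2, LEF1 and LGR5, 21 of 22 names were matched and 18 genes were tested. Of these 8 rose, 4 fell and 6 were not called, beside 22.7% and 22.0% of all tested genes, and the median log2 fold change was 0.43. SHH, a ligand of the hair matrix, was the gene with the largest estimated increase. It had 233 and 134 counts in LGR5-high and 0 and 3 in LGR5-negative, too few for a fold. MYC, a growth regulator, fell the most, with 267 and 304 CPM in LGR5-high and 902 and 1082 CPM in LGR5-negative (log2 fold change -1.80). CCND1 and CD44 also fell, with -0.73 and -0.37, though CD44 was not called with library size only. EDAR rose with 2.38. The summed level of the 21 matched genes was 1530 and 1486 CPM in LGR5-high and 2265 and 2378 CPM in LGR5-negative. Most of that sum came from CD44, MYC and CCND1, which fell, so it does not describe the list as a whole. Their mean levels were 418, 286 and 153 CPM in LGR5-high and 542, 992 and 253 CPM in LGR5-negative.

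Several genes of that list inhibit WNT signaling as AXIN2 does, and were named after their values had been seen. NKD2, which acts on Dishevelled, rose from 31.6 and 29.0 CPM in LGR5-negative to 148 and 145 CPM in LGR5-high (log2 fold change 2.27). NOTUM, an enzyme that inactivates WNT ligands, rose from 15 and 28 counts to 126 and 153 counts. ZNRF3, a ligase that removes Frizzled receptors, rose with 0.73, and APCDD1, a membrane inhibitor, with 0.45. The secreted inhibitors WIF1 and DKK4 had few reads in LGR5-negative, with 2 and 7 counts for WIF1 and 4 and 4 for DKK4, and rose to 194 and 266 counts and to 45 and 85 counts. RNF43, the partner of ZNRF3, had -0.11 (adjusted p = 0.380 by edgeR) and NKD1 had 0.46 (adjusted p = 0.303 by edgeR), while KREMEN1, a receptor of DKK proteins, fell with -0.62. DKK1, another secreted inhibitor, had 4 and 5 counts in LGR5-high and 0 and 3 in LGR5-negative and was not tested.

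The list of coactivators and partners of beta-catenin had 13 tested genes, with a median of -0.03. Of these 3 rose and 3 fell, beside 22.7% and 22.0% of all tested genes. With library size only the numbers were 5 and 2, beside 34.2% and 14.6% of all tested genes. The median was then 0.19, beside 0.24 for all tested genes. PYGO1 had the largest increase (log2 fold change 1.17) and PYGO2 the largest decrease (-0.60), and both encode Pygopus proteins that link beta-catenin to chromatin through BCL9 proteins. PYGO1 went from 4.21 and 4.43 CPM in LGR5-negative to 10.3 and 9.17 CPM in LGR5-high, and PYGO2 from 110 and 104 CPM to 72.5 and 68.7 CPM. Among the adaptors, BCL9 rose with 0.60 and its relative BCL9L was not called, at -0.21.

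The list of nuclear inhibitors and corepressor partners had 14 tested genes, with a median of -0.15. Of these 2 rose and 3 fell, beside 22.7% and 22.0% of all tested genes. When the pig was a replicate block, 2 rose and 5 fell, while 28.5% of all tested genes rose and 27.2% fell. Scaling by library size alone gave 3 higher and 2 lower genes. Under that scaling 34.2% of all tested genes rose and 14.6% fell. TNIK, a kinase on that list that is not a known inhibitor, had -0.68. In the edgeR test TNIK was called lower with the replicate block and not called without it. CTBP2, a corepressor, had the largest increase among the called genes with a log2 fold change of 1.21. KLF4, a factor of epidermal differentiation that can bind beta-catenin, had the largest decrease among the called genes with -1.56. CTNNBIP1, whose product blocks the binding of beta-catenin to TCF proteins, fell with -0.83, from 171 and 155 CPM in LGR5-negative to 88.1 and 95.7 CPM in LGR5-high. It was named after its values had been seen.

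In the list of the destruction complex and its inputs, 8 of 16 tested genes fell and 0 rose in the edgeR test. Over all tested genes 22.0% fell and 22.7% rose. The median of the list was -0.27. DVL1 and USP7 were among the genes that fell, and APC, GSK3A and GSK3B were not called. With DESeq2 and limma-voom the counts were also 8 and 0. Over all tested genes 18.2% fell and 17.9% rose with DESeq2, and 22.1% and 22.9% with limma-voom. At an unadjusted p-value under 0.05 the edgeR counts were 8 and 0 as well, but the share of all tested genes at that threshold is not given here. AMER1, which brings the complex to the membrane, fell the most, with a log2 fold change of -0.94, 12.2 and 11.7 CPM in LGR5-high and 21.1 and 24.6 CPM in LGR5-negative. The falls were small and depended on the scaling. With library size only, 1 gene fell and 3 rose, beside 14.6% and 34.2% of all tested genes. The median was then -0.04, beside 0.24 for all tested genes.

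**Figure D5:**
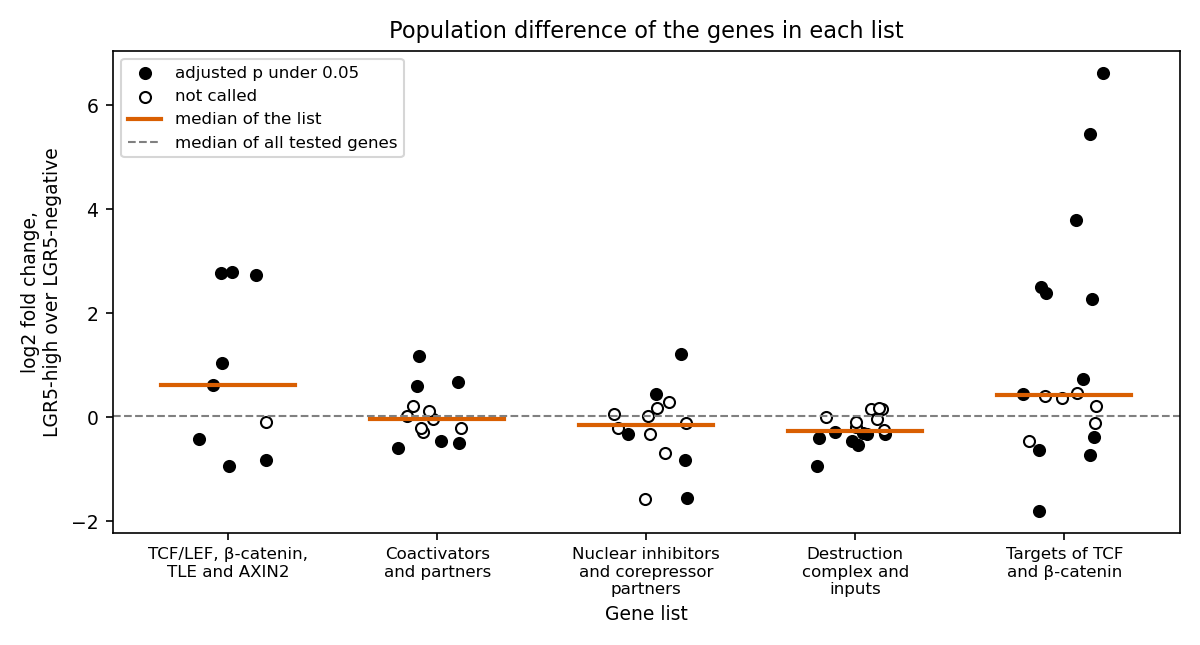
log2 fold change between LGR5-high and LGR5-negative of the members and of the tested genes in 4 lists of the pathway. Filled points had an adjusted p-value under 0.05, orange lines are list medians and the dashed line is the median of all tested genes. The list medians are 0.62, -0.03, -0.15, -0.27 and 0.43 from left to right. The highest point, SHH, is a fitted value that depends on the prior count.

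Genes with a pattern most like that of 2 members were found by the Euclidean distance, over the 4 libraries, between log2 CPM values centred on the mean of each gene. For TCF7L1, the member with the largest increase, the nearest of 15979 genes were LOC110256975, PADI3 and LTF, at distances of 0.117, 0.148 and 0.151. LOC110256975 had few reads, with 0.140 and 0.132 CPM in LGR5-negative. TCF7 and TCF7L2 were at ranks 195 and 198. For TLE4, the member with the largest decrease, the nearest were MMP17, ZMAT3 and LOC100511905, at distances of 0.0223, 0.0309 and 0.0412, and TLE3 was at rank 322. With 4 libraries many genes share such a pattern.

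The symbol TCF4 is an official gene name for a basic helix-loop-helix factor and is also used as an older name of TCF7L2, so its row is given apart. TCF4 had 66.9 and 70.2 CPM in LGR5-high and 24.4 and 29.4 CPM in LGR5-negative. It rose with a log2 fold change of 1.35 (SE 0.12, adjusted p = 5.68e-04 by edgeR). The row named TCF7L2 had 2.73.

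Other cells that the sort could hold were read from their markers. All 5 antigen-presenting cell markers fell in LGR5-high, with a summed level of 7.45 to 9.16 CPM there and 100 to 143 CPM in LGR5-negative. Melanocyte markers fell in 5 of 6 genes, with sums of 32.9 and 37.2 CPM in LGR5-high, 63.4 CPM in the LGR5-negative library of pig 88R and 238 CPM in that of pig 95R. Between the LGR5-negative libraries, pig 95R minus pig 88R on the log2 scale, the members differed both ways, with 0.53 for TCF7L2, 0.26 for LEF1, 0.25 for TLE2, 0.15 for TLE4, 0.04 for CTNNB1, 0.02 for TLE3, -0.10 for AXIN2, -0.14 for TCF7 and -0.19 for TCF7L1. Endothelial markers fell in 4 of 5 genes, with sums of 6.11 to 7.48 CPM in LGR5-high and 20.8 to 20.9 CPM in LGR5-negative. Of the 5 fibroblast and dermal papilla markers tested, 4 fell and COL1A1 rose, with sums of 231 and 449 CPM in LGR5-high and 346 and 224 CPM in LGR5-negative, and PDGFRA had 4 and 3 counts in LGR5-high. The part of these cells in the results above was not tested.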

How the data were processed

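The libraries were made from poly(A) RNA of cells sorted from the skin of 2 pigs and read from both ends. For each of the 4 libraries the authors deposited raw counts of reads by gene symbol, with no normalization. The submitters' processing notes name Trimmomatic 0.36, STAR 2.5.2b, and featureCounts with Subread 1.5.2. The genome build, the annotation and the strand setting are not given in the sources used here. Each of the 29837 named genes has a symbol in RefSeq's Sscrofa11.1 annotation, from which names and neighbours were taken. The 1 entry without a name, 0.360% to 0.626% of the counts of a library, was left out.

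Counts were fitted with edgeR 4.0.16 in R 4.3.3. The function filterByExpr (minimum count 10, minimum total count 15) left 15980 genes. Scaling was by TMM, and the quasi-likelihood test had the population as the only term. SE is the absolute log2 fold change over the square root of the F statistic. The log2 fold changes of single pigs used a prior count of 2. The pig as a replicate block was an alternative. The labels give both libraries of a pig its number, and their deviations from the population means correlated at 0.370 over 15980 genes. Further alternatives were 3 scalings, 2 filters, DESeq2 1.42.0, limma-voom (limma 3.58.1), Student's t-test on log2(CPM + 1), which the study's methods name, Bonferroni adjustment, and leaving out each library. On simulated counts of the comparison, with 15657 genes tested, edgeR recovered 144 of 197 changed genes with 9 false calls. The simulation had few changed genes and no effect of the pig, whereas 44.7% of tested genes were called in the data. Its recovery may therefore not carry over to these libraries.

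The members and lists were chosen with earlier results of these data known. The rule for names took every member, TCF4, the called genes with the largest increase and decrease of each pathway list, and the 3 nearest patterns, and other genes were named after their values had been seen. Listed names that are a newer or older symbol of another listed gene (TLE5 for AES, TROY for TNFRSF19) count as unmatched. Plots were drawn with matplotlib 3.10.9.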

Additional observations from a re-analysis of the deposited data

How the results depend on the processing

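Of 126 log2 fold changes of the 9 members under the 14 other settings, 104 kept their direction and their side of the threshold and 19 kept the direction but lost the call. The other 3 were values of TLE2, not called in any setting, that turned above 0. It was 0.12 with library size only, 0.087 without the LGR5-high library of pig 88R and 0.023 without the LGR5-negative library of pig 95R, in a range from -0.32 to 0.087 over the libraries left out. With the pig as a replicate block, 5 members were higher and 3 lower, as without it, 4562 and 4342 of all tested genes were called, and the block changed no member's call. Against 3632 higher and 3508 lower genes in all, library size only gave 5473 and 2326, Student's t-test 544 and 502, and Bonferroni adjustment 194 and 130. The t-test called 2 members higher (CTNNB1 and TCF7L1) and 0 lower, beside 3.40% and 3.14% of all tested genes. At an unadjusted p-value under 0.05 it gave 4 higher and 3 lower, but the share of all tested genes at that threshold is not given here. The Bonferroni-adjusted edgeR test called 1 member higher (TCF7L1) and 0 lower, although TLE3, TLE4 and AXIN2 had unadjusted p-values under 0.05. Leaving out 1 library gave between 2279 and 3169 higher and between 2139 and 3004 lower genes, with 2340 higher and 2437 lower without the LGR5-high library of pig 88R and the fewest without that of pig 95R. The cause of these shifts was not tested. On simulated data, which held few changed genes, the t-test made 0 calls. Of the values of the pathway and marker lists, 1 moved and 25 changed little with the replicate block, and 9 moved and 26 changed little with library size only. The lowest count of a member was 114.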
